A study of Rattus norvegicus with 12 samples.

Results

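Immediate early response genes are transcribed within minutes of a stimulus, without new protein synthesis. The set described here has 10 genes, chosen by name as well-known genes of this class: Fos, Fosb, Jun, Junb, Jund, Egr1, Ier2, Atf3, Nr4a1 and Dusp1. They are 10 of the 16511 genes in the deposited table of read counts, and all 10 were among the 9382 genes that passed the filter on low counts. RNA was sequenced from whole, snap-frozen mammary glands of rats at postnatal day (PND) 21, with 1 gland per litter. The HFB group, 6 glands, came from offspring exposed before birth to a high fat butter diet, and the CTL group, 6 glands, from offspring of the AIN control diet. The design text gives the diets from gestation day 1 to PND 23, yet also states that newborns received control diet from PND 0 to 21, which could not be settled. Strain and sex are not given in the labels. Totals ran from 2320267 counts in HFB1 to 2944680 in CTL1, where the number after the group is only a name for the replicate. The median total was 2660268 in HFB and 2537564 in CTL glands. The mean total differed by 61429 counts, which an exact permutation test over all assignments of libraries to diets did not separate (p = 0.561).

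The products of these genes work at different steps. Fos, Fosb, Jun, Junb, Jund and Atf3 encode leucine zipper proteins that pair with each other to form the AP-1 family of transcription factors. Egr1 and Nr4a1 encode a zinc finger factor and an orphan nuclear receptor, Ier2 a short-lived nuclear protein, and Dusp1 a phosphatase that switches off MAP kinases. In tissue these genes also respond to handling and to the time between death and freezing, which the labels do not give.

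Before the results, 2 libraries have to be set apart. HFB6 and CTL6 were unlike the rest: the median Spearman correlation of a library with the other libraries over the genes tested was 0.787 for HFB6 and 0.831 for CTL6, against 0.914 to 0.964 for the other 10. Lymphoid genes were far higher in these glands, with a summed level of 1168 CPM (counts scaled for library size) in HFB6 and 1121 in CTL6 against 4.61 to 244 in the others. The summed level of adipocyte genes, of which Fabp4 was the most abundant, was lower, at 24350 and 18036 CPM against 32027 to 42550, though Cfd was at 4040 and 2165 CPM against 1469 to 4439. Ribosomal protein genes took 8.53% of the counts in HFB6 and 7.48% in CTL6, against 3.62% to 5.93% elsewhere. The diets each hold 1 of these glands. In bulk tissue, fewer cells of a type and less RNA per cell cannot be told apart. Values of the 10 genes are given with and without these glands, a choice made after seeing the data, and values of other lists over all 12.

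The Jun genes gave the highest counts among the AP-1 genes. Jund, a family member usually present at rest, ran from 109 CPM through a median of 160 to 459 in HFB glands, and from 88.0 through 150 to 291 in CTL glands. Junb, which opposes Jun at many promoters, ran from 15.8 through 26.7 to 43.9 CPM in HFB and from 18.1 through 20.9 to 46.2 in CTL. Jun itself ran from 41.1 through 72.1 to 108 CPM in HFB and from 49.4 through 75.0 to 116 in CTL. The groups overlapped for each of these genes. Jund was highest in HFB6, HFB5 and CTL6, and Junb in CTL6 and HFB6, whereas Jun was lowest in HFB6 and CTL6.

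The Fos genes were scarce at this depth. Fos, the partner that gives AP-1 its strongest activity, ran from 2.39 through 4.997 to 6.82 CPM in HFB and from 1.57 through 5.95 to 12.3 in CTL, on 4 to 39 counts per library. Fosb ran from 0.356 through 3.51 to 6.93 CPM in HFB and from 2.80 through 4.04 to 7.08 in CTL, on 1 to 20 counts. Atf3, a stress-induced repressor, ran from 4.09 through 6.06 to 11.6 CPM in HFB and from 4.55 through 8.71 to 12.2 in CTL. The groups overlapped again. Fos was highest in CTL1 and CTL4 and lowest in CTL2, Fosb was lowest in HFB4, and Atf3 was lowest in HFB1.

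Egr1, a growth-factor responsive activator, ran from 1.59 through 9.26 to 19.2 CPM in HFB and from 6.66 through 12.7 to 23.2 in CTL. Nr4a1 ran from 6.05 through 10.7 to 20.3 CPM in HFB and from 5.11 through 11.1 to 27.7 in CTL. Ier2 ran from 43.4 through 48.5 to 170 CPM in HFB and from 38.4 through 54.1 to 132 in CTL. Egr1 was highest in CTL4 and CTL1 and lowest in HFB6, where it had 4 counts. Ier2 and Nr4a1 went the other way, with HFB6 and CTL6 above all the other 10 glands for both genes. Dusp1 ran from 86.5 through 156 to 234 CPM in HFB and from 89.3 through 118 to 140 in CTL. For Dusp1, 5 of 6 HFB glands lay above the highest CTL gland and HFB6 lay below the lowest.

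**Figure D1:**
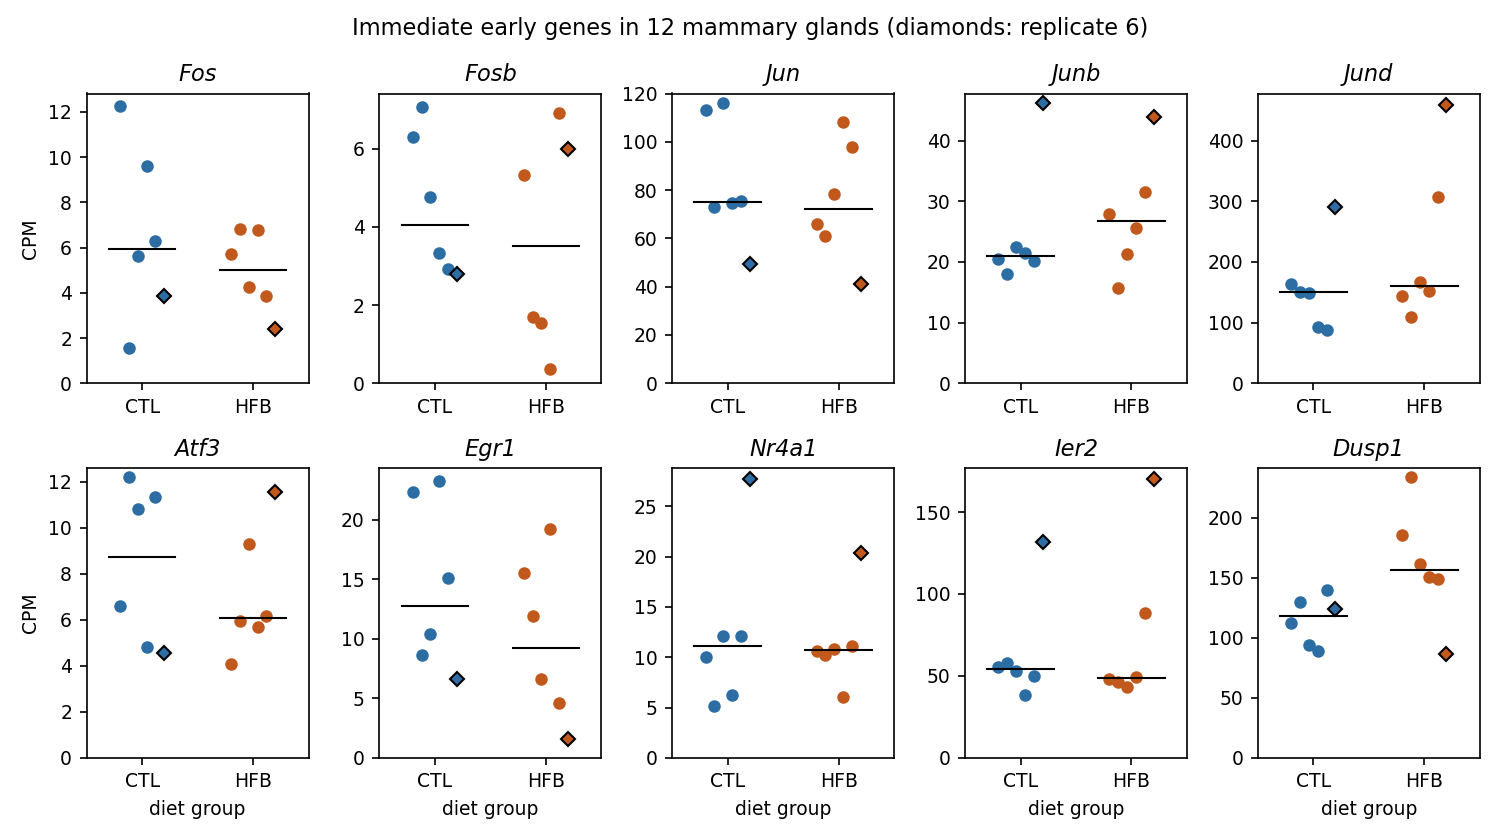
Normalized level (CPM) of each gene in each gland, by diet group, with a line at the group median and diamonds for HFB6 and CTL6. Jund, Junb, Ier2 and Nr4a1 were high in the diamonds, Jun and Egr1 low in HFB6, and Dusp1 was above 140 CPM in 5 HFB glands.

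Whether the genes differed by diet group was asked with edgeR's quasi-likelihood test over all 9382 genes. None of the 10 passed an adjusted p under 0.05, and 0 of 9382 genes did (0%). At an unadjusted p under 0.05 the edgeR count was 220 genes (2.34%), 122 of them higher with HFB (1.3%), while DESeq2 gave 0 adjusted and 274 unadjusted and limma-voom 0 and 613. The unadjusted edgeR count was 380 without HFB1, 389 without HFB4, 135 without HFB5, 141 without CTL1, 141 without CTL4, 137 without CTL5 and 587 without CTL6. Dusp1 was the member past the unadjusted threshold, with a log2 fold change of 0.49 (SE 0.20, n = 6 per group, edgeR unadjusted p = 0.0326, adjusted p = 0.999), or 1.40-fold. For the other 9 genes the log2 fold change ran from -0.54 for Egr1 (SE 0.50) to 0.51 for Jund (SE 0.38), each under 1.5 times its SE. The median over the 10 genes was -0.12 beside 0.00 over all genes tested. No member had groups that did not overlap, against 0.107% of all genes.

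Without HFB6 and CTL6 the Dusp1 difference was larger, at a log2 fold change of 0.64 (SE 0.17, edgeR unadjusted p = 0.00191, adjusted p = 0.919). It was still the only member of 10 past the unadjusted threshold in that fit, where 4.58% of all genes passed. Left out singly, the libraries moved the Dusp1 value between 0.35 and 0.61. Its unadjusted edgeR p rose to 0.0650 without HFB1, 0.0908 without HFB2, 0.0545 without CTL1, 0.0690 without CTL3 and 0.0673 without CTL4. For Nr4a1 the sign changed without both glands, from -0.09 to 0.10. The other values then ran from -0.64 for Fosb (SE 0.55) to 0.45 for Jund (SE 0.27), with Atf3 at -0.54 (SE 0.31). Jund rested on single glands: it was 0.16 without HFB6 and 0.80 without CTL6, where its unadjusted edgeR p was 0.0449 (adjusted p = 0.688). In limma-voom Fosb also passed the unadjusted threshold, at -1.34 (unadjusted p = 0.0158). Over the 10 glands Dusp1 ran against the mean log2 CPM of the fibroblast genes (r -0.85, against 0.02 over 12). With the smooth muscle genes r was -0.55, against -0.59 over 12. These lists were named after their values were seen. With the other cell type lists r over the 10 glands ran from -0.36 (epithelial) to 0.40 (red cell). The part of cell makeup in the Dusp1 difference was not tested.

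**Figure D2:**
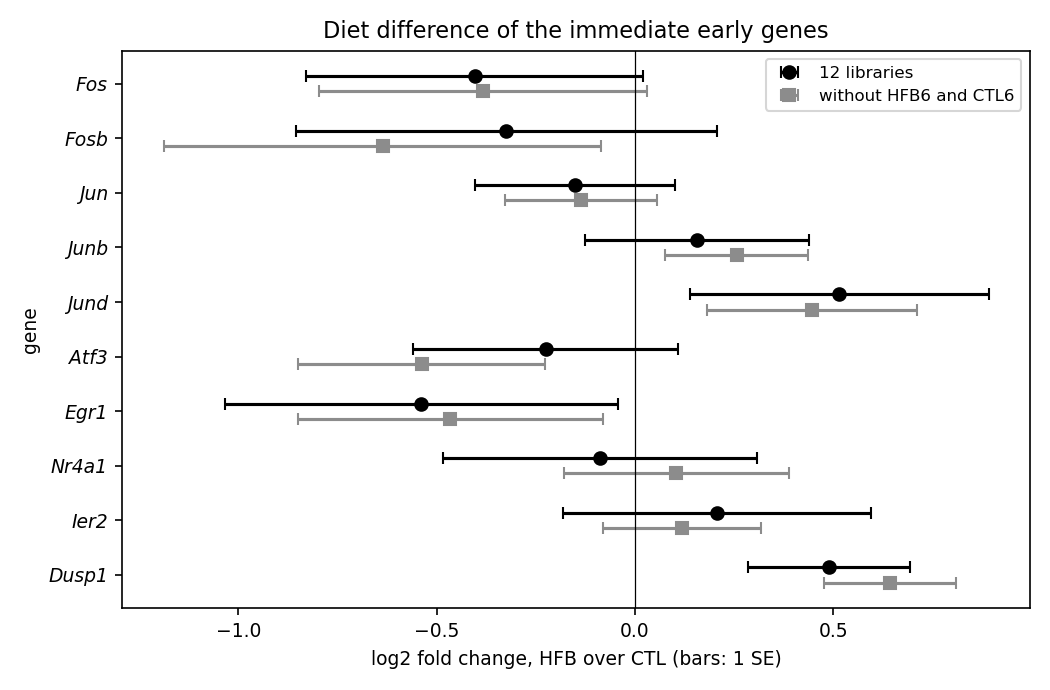
Fitted log2 fold change of HFB over CTL for each gene, with bars of 1 SE, over 12 libraries (black) and without HFB6 and CTL6 (grey). Dusp1 lay at 0.49 and 0.64, and the bars of several other genes crossed 0.

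From gland to gland the genes varied more than most. The standard deviation (SD) of log2 CPM over the 12 libraries was above the median of all genes tested for all 10 members, with a median of 0.65 beside 0.40. Egr1 had the widest spread of the 10 (SD 0.98, at the 91.7th percentile of the genes tested), followed by Fosb (SD 0.86), Jund (0.71) and Fos (0.69). Dusp1 had the narrowest (SD 0.43, 55.8th percentile). Atf3, Fosb and Fos rest on few counts, and their variance was 3.09, 3.36 and 4.31 times that of counting error alone, the lowest of the 10. On that measure these genes lay below the median of all genes tested, 6.45. Without HFB6 and CTL6 the median SD was 0.46 for the members and 0.29 for all genes, and 9 of the 10 members were above the median of all genes. Ier2 moved from percentile 79.0 to 59.2, Junb, then the narrowest, from 61.0 to 47.9 (SD 0.28), and Dusp1 from 55.8 to 76.9 (SD 0.43).

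The genes did not vary as 1 block. Jund, Ier2, Junb and Nr4a1 were high together in HFB6 and CTL6. Jun was lowest in these glands, and Egr1 was lowest in HFB6, while HFB5 and HFB3 lay below CTL6 for Egr1 and CTL2 lay below both for Fos. Jund and Ier2 had a Pearson r of 0.91 over 12 glands (Spearman rho 0.67), Junb and Ier2 0.86 (rho 0.48), and Junb and Jund 0.83 (rho 0.62). Egr1 ran against Jund (r -0.84, rho -0.69) and Ier2 (r -0.80, rho -0.58), and with Fos (r 0.77, rho 0.87). These are descriptions over 45 pairs of genes measured in the same libraries, with no test.

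**Figure D3:**
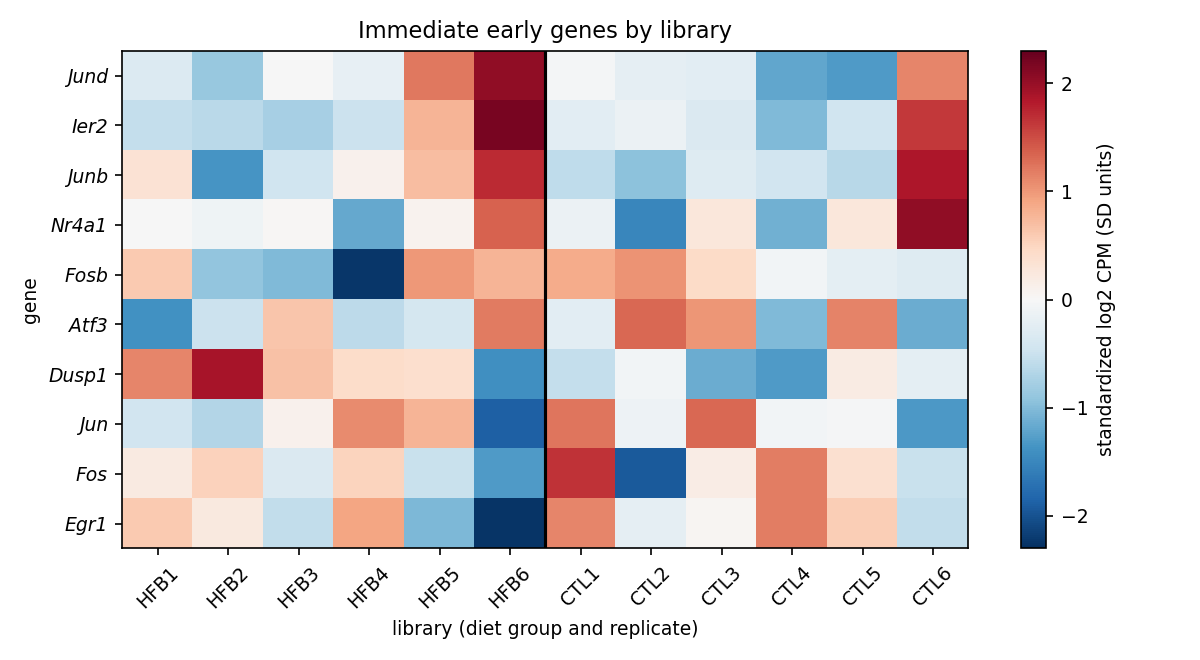
Log2 CPM of each gene, standardized over the 12 libraries, in SD units, with libraries in columns and a line between the diets. Jund, Ier2, Junb and Nr4a1 were high in HFB6 and CTL6, where Jun was lowest.

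Set against all pairs of genes tested, the count of close pairs was ordinary. Of the 45 pairs, 3 had r of 0.8 or more (6.67%, beside 4.52% of all pairs) and 2 had r of -0.8 or less (4.44%, beside 4.17%). The median r was -0.15 among the members and -0.00 over all pairs. Without HFB6 and CTL6, 1 pair had r of 0.8 or more (beside 1.59% of all pairs) and 0 had -0.8 or less (beside 1.28%), 13 of 45 pairs changed sign, and the median was 0.07. Jund and Ier2 had r 0.81 there (rho 0.49, from 0.67), and Fos and Egr1 0.73 (rho 0.87). Junb and Ier2 had 0.48, Egr1 and Jund -0.66, Egr1 and Ier2 -0.60, and Ier2 and Nr4a1 went from 0.74 to 0.19, so those values rest in part on these glands. Without CTL1 and CTL4, the glands farthest from the median of the mean standardized level of the 10 genes, 3 pairs had r of 0.8 or more (beside 5.44% of all pairs), 2 had -0.8 or less (beside 5.12%), and 2 pairs changed sign.

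**Figure D4:**
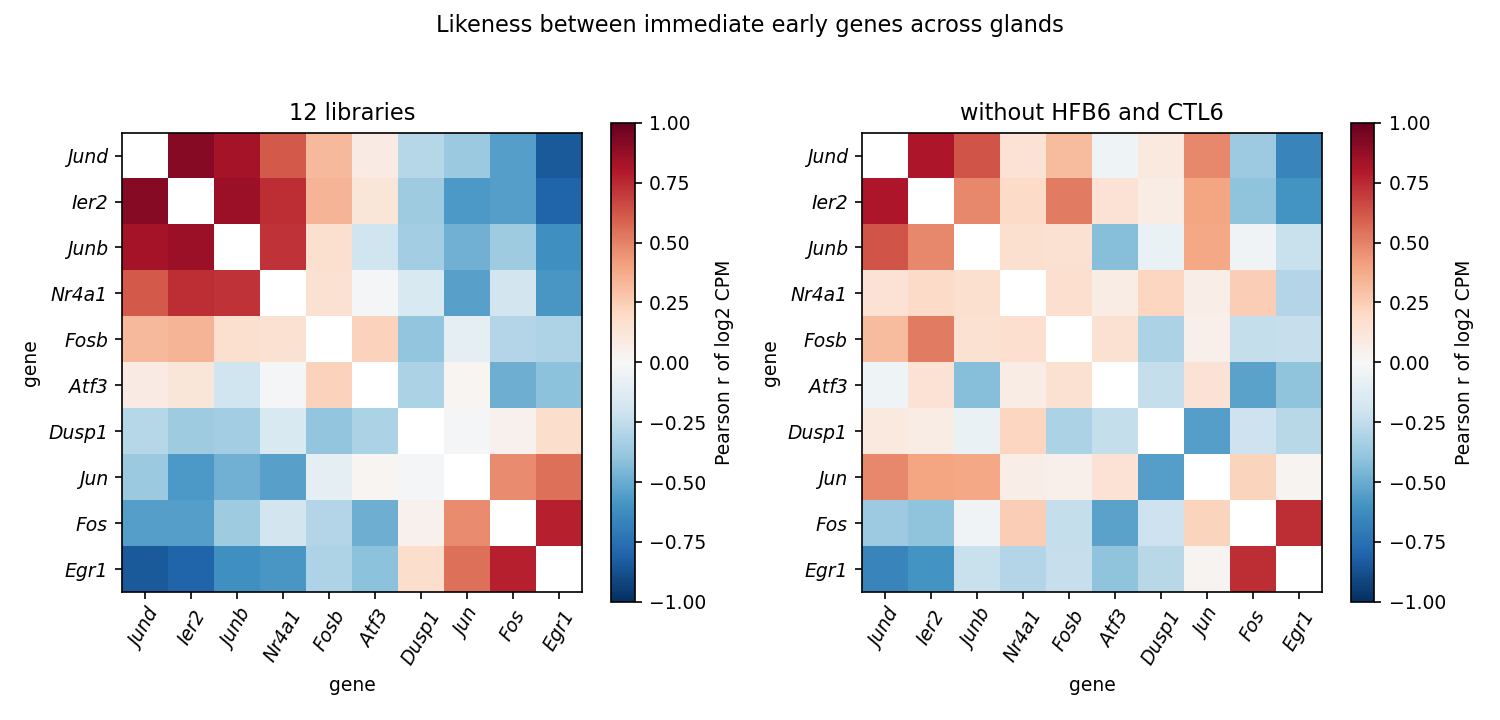
Pearson r of log2 CPM for each pair of genes over 12 libraries (left) and without HFB6 and CTL6 (right). Jund with Ier2 and Fos with Egr1 stayed above 0.7 in both, and 13 of 45 pairs changed sign.

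Promoters of the genes that were high together, and of Dusp1, are shown because levels that move together raise the question of shared sequence. Windows of 250 bases before and 50 after the gene start, taken from RefSeq on GRCr8, were matched to 7 of the 10 members: Fosb, Junb, Jund, Egr1, Ier2, Nr4a1 and Dusp1. Fos, Jun and Atf3 were not analysed here, and the windows of Fosb and Egr1 are not printed. Capitals mark TGACG and TGCGTCA on either strand, letters that the cyclic AMP response element (CRE), TGACGTCA, holds in whole or in part. The windows are Jund at chr16:18769722-18770021, minus strand, Ier2 at chr19:40399123-40399422, plus strand, Junb at chr19:40080876-40081175, plus strand, Nr4a1 at chr7:134259888-134260187, plus strand and Dusp1 at chr10:17184603-17184902, plus strand.
Jund: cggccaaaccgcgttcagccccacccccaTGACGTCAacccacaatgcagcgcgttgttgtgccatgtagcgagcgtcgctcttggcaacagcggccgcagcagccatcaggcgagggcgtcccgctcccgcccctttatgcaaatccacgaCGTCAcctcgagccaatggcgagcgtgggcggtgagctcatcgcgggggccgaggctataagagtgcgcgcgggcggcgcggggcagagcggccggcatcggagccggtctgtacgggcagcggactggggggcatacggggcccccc
Ier2: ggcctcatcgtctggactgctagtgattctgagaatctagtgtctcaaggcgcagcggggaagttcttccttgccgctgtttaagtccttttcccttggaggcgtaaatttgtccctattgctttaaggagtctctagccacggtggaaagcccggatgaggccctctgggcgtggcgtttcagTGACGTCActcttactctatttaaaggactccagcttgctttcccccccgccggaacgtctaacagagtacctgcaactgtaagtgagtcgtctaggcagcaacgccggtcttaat
Junb: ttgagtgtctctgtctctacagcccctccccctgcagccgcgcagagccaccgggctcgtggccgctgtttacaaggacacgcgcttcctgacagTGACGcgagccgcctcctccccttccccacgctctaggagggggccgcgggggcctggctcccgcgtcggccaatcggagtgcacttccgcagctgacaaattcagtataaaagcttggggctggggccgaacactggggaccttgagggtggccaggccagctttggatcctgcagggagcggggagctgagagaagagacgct
Nr4a1: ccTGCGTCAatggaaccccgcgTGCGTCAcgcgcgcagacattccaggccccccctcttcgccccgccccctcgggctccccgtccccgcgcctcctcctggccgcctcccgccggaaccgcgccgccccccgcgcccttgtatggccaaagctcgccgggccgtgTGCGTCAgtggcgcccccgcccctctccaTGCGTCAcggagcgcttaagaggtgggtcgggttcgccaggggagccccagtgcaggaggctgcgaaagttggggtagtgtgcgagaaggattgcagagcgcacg
Dusp1: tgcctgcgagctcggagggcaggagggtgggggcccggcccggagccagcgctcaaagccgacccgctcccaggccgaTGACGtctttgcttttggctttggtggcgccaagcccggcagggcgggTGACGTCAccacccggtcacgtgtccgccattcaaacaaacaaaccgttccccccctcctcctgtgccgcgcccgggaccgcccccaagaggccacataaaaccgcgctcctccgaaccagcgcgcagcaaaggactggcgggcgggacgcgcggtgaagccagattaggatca
The full CRE, TGACGTCA, lay in the windows of Jund, Ier2 and Dusp1, 3 of 7 members, and in 1.83% of all 33469 promoters of this length. Nr4a1 held TGCGTCA at 4 places, letters found in 1.9% of all promoters. TGACG, which overlaps both, was in 6 of 7 members and 21.2% of promoters. The AP-1 letters TGANTCA were in 0 of 7 members (7.33% of promoters), GCGNGGGCG, which EGR proteins can bind, in 2 (4.98%), TATAAA in 2 (14.2%), and the CArG box of serum response factor in 1, Egr1 (1.64%). A match of letters is a description of the window and no more.

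Which genes followed Fos from gland to gland, at a given diet, was asked by adding log2 CPM of Fos to the edgeR fit. None of the 9 other members passed an adjusted p under 0.05, nor did any of 9381 genes (0%). At an unadjusted p under 0.05 there were 991 genes (10.6%), with 0 adjusted and 1320 unadjusted by DESeq2 and 0 and 269 by limma-voom. Among members, 3 passed the unadjusted threshold: Egr1 with a slope of 1.01 log2 CPM per log2 CPM of Fos (adjusted p = 0.452), Jund with -0.59 and Ier2 with -0.67. Without HFB6 and CTL6 these slopes were 0.78, -0.23 and -0.19. Jund had an unadjusted edgeR p of 0.0576 without HFB1, 0.0724 without HFB2, 0.0645 without HFB4, 0.152 without HFB6 (slope -0.39), 0.0756 without CTL4 and 0.0833 without CTL6, and Ier2 0.128 without HFB6 (slope -0.40). Atf3 had an unadjusted edgeR p of 0.0172 without CTL6 (slope -0.56) and of 0.0492 without HFB6 and CTL6 (slope -0.46). The unadjusted edgeR count was 627 without HFB2, 546 without HFB4, 181 without HFB6, 3912 without CTL2, 537 without CTL4 and 499 without CTL6. CTL2 was the gland with the lowest Fos, at 4 counts. Without CTL2, 1786 genes passed the adjusted threshold (18.8%), 5 of 9 members among them: Egr1 rose with Fos (slope 1.76, adjusted p = 0.0153) and Junb, Jund (-0.95), Ier2 (-1.09) and Nr4a1 fell.

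Egr1 in place of Fos gave a different count. Over the 12 glands 3206 of 9381 genes followed Egr1 at an adjusted p under 0.05 (34.2%), 15.7% rising and 18.5% falling. Fos rose with Egr1 (slope 0.69, SE 0.18, adjusted p = 0.0126), 1 of 9 members. Ier2 (slope -0.63, SE 0.11, adjusted p = 0.00472), Jund (-0.59, SE 0.12, adjusted p = 0.00577) and Nr4a1 (-0.51, SE 0.17, adjusted p = 0.0368) fell, 3 of 9. A share of 4 in 9 stands beside 34.2% of all genes. The members' median slope was -0.35, and that of all genes -0.00.

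The count of genes called with Egr1 rests on HFB6. Without HFB6 edgeR called 0 genes at an adjusted p under 0.05 and 1980 unadjusted, and without HFB6 and CTL6 it called 0 (0%) and 1637 (17.4%). Limma-voom with sample weights called 0 over all 12 glands, with 2069 unadjusted, and DESeq2 called 3546. Without HFB6 alone the slope of Fos was 0.80, of Jund -0.56, of Ier2 -0.53 and of Nr4a1 -0.53. Without both glands the slope of Fos was 0.82, of Jund -0.41, of Ier2 -0.31 and of Nr4a1 -0.18, none of them past the adjusted threshold. In that fit Fos, Jund, Ier2 and Atf3, 4 of 9 members, passed the unadjusted edgeR threshold, beside 17.4% of all genes. With libraries left out singly, Nr4a1 missed the adjusted threshold without HFB2 (edgeR adjusted p = 0.0505), HFB4 (0.0834), HFB6 (0.255), CTL4 (0.0750) or CTL6 (0.103). Junb passed the adjusted threshold without HFB1 (0.0484) or CTL2 (0.0335), and Atf3 without CTL6 (0.0281).

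**Figure D5:**
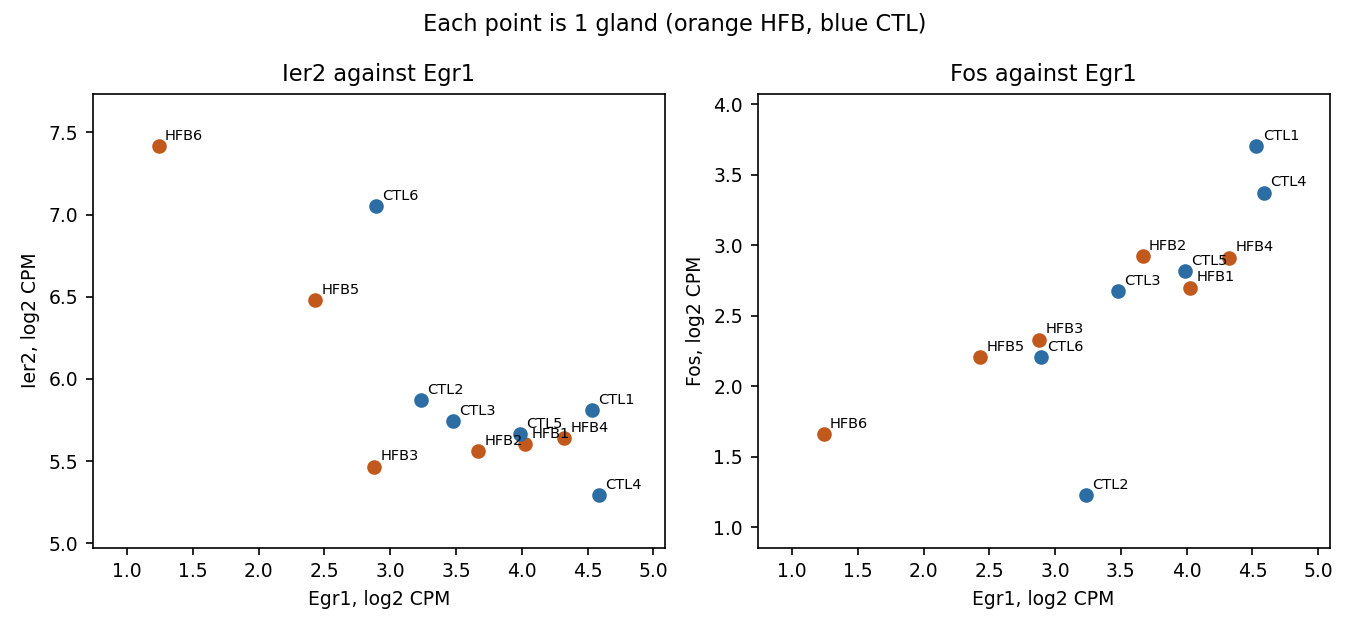
Log2 CPM of Ier2 (left) and Fos (right) against log2 CPM of Egr1, with 1 point per gland. HFB6, HFB5 and CTL6 hold the highest Ier2, and CTL2 lies apart with the lowest Fos.

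Cell type genes moved with the same glands. For smooth muscle genes, 5 of 6 listed were in the table, Tagln the most abundant, and their summed level was 1183 CPM in HFB6 and 1151 in CTL6 against 132 to 403 in the others. Endothelial genes, 7 of 10 with Egfl7 the most abundant, summed to 964 and 902 CPM against 248 to 380. Cdh5, of this list, did not follow the sum, at 2.79 CPM in HFB6 and 27.3 in CTL6 against 5.39 to 46.9 in the others. Epithelial genes, 11 of 12 with Krt8 the most abundant and Cldn3 at 0, summed to 765 and 771 CPM against 124 to 676. Krt8 was at 221 and 191 CPM against 41.5 to 200. Epcam, of the same list, did not follow the sum, at 51.0 CPM in HFB6 and 77.4 in CTL6 against 13.5 to 96.3 in the others. Lymphoid genes, 9 of 10 in the table, had Cd79b as the most abundant, at 262 CPM in HFB6 and 230 in CTL6 against 0.786 to 21.3. The adipocyte list, 9 of 10 with Fabp4 the most abundant, had its lowest sums in both. Ier2 followed the ribosomal protein share with r 0.95 over 12 glands and 0.72 without HFB6 and CTL6, and Egr1 with -0.81 and -0.63. With the mean log2 CPM of the 3 lymphoid genes that passed the filter, Nr4a1 had r 0.79 and 0.39, and Ier2 0.72 and -0.16. The part of cell makeup, RNA quality or handling in these levels was not tested.

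Counts for the lists stand beside 15.7% of all genes rising and 18.5% falling with Egr1, and 2.34% past the unadjusted threshold by diet, over 12 glands. Without HFB6 and CTL6, 0 of all genes passed with Egr1, and so 0 of any list. At an adjusted p under 0.05 with Egr1 over 12 glands, 5 endothelial genes fell and 1 rose of 7 tested, 3 smooth muscle genes of 5 fell, 2 lymphoid of 3, 2 epithelial of 9 and 5 macrophage of 10, while 2 adipocyte genes of 9 rose. Of 8 fibroblast genes 1 rose, of 7 mast cell genes 1 rose, of 7 Schwann cell genes 1 fell, and 0 of 9 skeletal muscle and 0 of 7 red cell genes passed. By diet, 2 macrophage genes passed the unadjusted threshold, C1qb (log2 fold change 0.59, SE 0.20) and C1qc (0.36, SE 0.16), both with higher levels in HFB, and 0 genes of the other cell type lists did. The summed macrophage level was 2142 CPM in HFB6 and 1644 in CTL6 against 964 to 1696. Lyz2, the most abundant of the list, was at 831 and 904 CPM against 174 to 637. C1qb was at 289 and 132 CPM against 109 to 299, and C1qc at 247 and 157 against 137 to 284. Fibroblast sums were 25160 CPM in HFB6 and 23670 in CTL6 against 34485 to 54427, mast cell sums 217 and 91.4 against 275 to 622, and Schwann cell sums 1201 and 1390 against 2166 to 3197. Skeletal muscle sums were 8506 CPM in HFB6, the highest of all, and 1502 in CTL6 against 235 to 7567. Red cell sums were 29514 and 13382 CPM against 9008 to 92366, with Hba-a1 and Hba-a2 alike enough in sequence that reads may not be told apart. These differences were not tested.

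Of 51 other rapidly induced genes listed, 48 were in the table and 36 were tested. By diet 0 passed the adjusted threshold, and 2 passed the unadjusted threshold with higher levels in HFB: Cebpb (log2 fold change 0.55, SE 0.24), a leucine zipper factor, and Ier5l (0.58, SE 0.26), named after their values were seen. The list's median was 0.06. With Egr1, 3 rose and 6 fell of 36 (beside 15.7% and 18.5% of all genes), among them Klf10 (slope 0.32), Bhlhe40 (1.16) and Klf6 (-0.44). Rhob, the most abundant, was at 259 CPM in HFB6 and 342 in CTL6 against 434 to 760 in the other glands. Btg1, an inhibitor of proliferation, was at 408 and 514 CPM against 142 to 274. Gadd45a, a stress response gene, was at 34.3 and 43.4 CPM against 66.2 to 158, so members of this list lay on either side of the other glands.

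Genes upstream of the set, the kinases and factors that act on serum and cyclic AMP response elements, showed 0 of 18 past the unadjusted threshold by diet, with a median log2 fold change of -0.05. With Egr1, 4 rose and 3 fell of 18 (beside 15.7% and 18.5% of all genes). Srf, the serum response factor, was at 96.1 CPM in HFB6 and 105 in CTL6 against 45.2 to 63.9, and had a slope of -0.30. Map2k1, a kinase that activates ERK, was at 50.2 and 67.6 CPM against 73.9 to 130, with a slope of 0.33. Map2k2, which does the same work, had a slope of -0.39. Of the AP-1 partners and EGR corepressors, 0 of 10 passed by diet (median -0.02), and with Egr1 3 rose and 2 fell. Nab2, a corepressor of EGR proteins, was at 146 and 157 CPM against 71.9 to 120. Maf, a leucine zipper factor, was at 1.99 and 1.75 CPM against 8.85 to 22.9.

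Genes known as AP-1 targets had 6 of 10 tested. By diet 0 passed the unadjusted threshold, with a median log2 fold change of 0.30, and with Egr1 4 fell and 0 rose (beside 18.5% and 15.7% of all genes). Timp1, an inhibitor of matrix proteases, was at 172 CPM in HFB6 and 68.7 in CTL6 against 19.0 to 73.5, and Ccnd1, the G1 cyclin, at 252 and 204 against 88.6 to 155. Heat shock genes, a stress response that often accompanies tissue handling, showed 0 of 10 past the unadjusted threshold by diet (median 0.04) and 1 falling with Egr1, Hspb1 (slope -0.31). Hspa5, the most abundant of them, was at 522 and 551 CPM against 553 to 864.

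Among the genes most like the mean standardized level of the 10 members over 12 libraries was Cyp7b1, an oxysterol hydroxylase (r 0.87, rho 0.87, and r 0.85 without HFB6 and CTL6). Others, with r over 12 and then 10 libraries, were Mllt1 (0.86, 0.85), Calhm2 (0.83, 0.86), Impdh1 (0.82, 0.83), Scnn1a (0.82, 0.78), B9d2 (0.82, 0.80), Capn1 (0.82, 0.78), Tifab (0.82, 0.79) and Emilin1 (0.82, 0.79). Since the members run against each other, this mean averages opposite patterns. Named after their values were seen, Slc27a4, a fatty acid transporter, was most like Ier2 (r 0.99, rho 0.96, and r 0.98 without HFB6 and CTL6), and Appbp2 most like Egr1 (r 0.97, rho 0.95, and 0.94).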

How the data were processed

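Rat mammary glands at PND 21 were represented by raw read counts per gene that the authors deposited, without normalization. The submitters' processing notes name CASAVA 1.8, bcl2fastq, TopHat, DESeq and the build rn4, and state neither counting rules nor use of strand, so reads of overlapping genes cannot be assigned to either. Entrez identifiers gave symbols for 16351 of 16511 genes through the RefSeq gene table of GRCr8. Counts were tested in edgeR 4.0.16 under R 4.3.3 (TMM, filterByExpr, quasi-likelihood test with default dispersion estimation, Benjamini-Hochberg adjustment over all genes kept, threshold 0.05). Robust dispersion estimation in edgeR was run earlier. It was replaced by default estimation after its results were seen, and is kept as an alternative: both gave 0 genes by diet and with Fos at the adjusted threshold, with unadjusted counts of 219 (robust) and 220 (default) by diet and 980 and 991 with Fos, and adjusted counts of 3184 and 3206 with Egr1. Log2 CPM used a prior count of 2. Alternatives were DESeq2 1.42.0, limma 3.58.1 (voom with sample quality weights), other size factors, filters and prior counts, and leaving out libraries; those without HFB6 and CTL6 together, and those of the Egr1 fit, were chosen after seeing the data. P-values measure spread between glands, 1 per litter. The fits were tested on simulated data. Members and lists were chosen with earlier results of these data known. Of each other list, the 4 genes with the highest mean CPM and those past the adjusted threshold in the Egr1 fit, up to 8 in all, could be named, and the 10 genes most like the members' mean. Figures were drawn with matplotlib 3.10.9.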

Additional observations from a re-analysis of the deposited data

Results flagged for a closer look

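In groups of 6 glands, a gland was singled out when its gap to the nearest other gland was a large part of the group's range, by a limit that chance passes in about 1 in 20 groups. Of 58 groups examined 21 met this, and most were HFB6 or CTL6. Ier2 was far above the others at 170 CPM in HFB6 and 132 CPM in CTL6. Nr4a1 was far above the others at 20.3 CPM in HFB6 and 27.7 CPM in CTL6. Junb stood at 46.2 CPM and Jund at 291 CPM in CTL6, each far above the other CTL glands. Lymphoid sums stood apart at 1168 CPM in HFB6 and 1121 CPM in CTL6. Endothelial sums stood apart at 964 CPM in HFB6 and 902 CPM in CTL6, and smooth muscle sums at 1183 and 1151 CPM. Sums of AP-1 target genes stood apart at 593 CPM in HFB6 and 408 CPM in CTL6. In CTL6 the sum of upstream genes was high at 1369 CPM, the ribosomal protein share was high at 7.48% of counts, and the adipocyte sum was low at 18036 CPM. Red cell sums were high in HFB2, at 92366 CPM, and in CTL3, at 57379 CPM. Total counts were low in HFB1, at 2320267, and high in CTL1, at 2944680. Causes were not tested.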

How the results depend on the processing

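No gene passed the adjusted diet threshold in edgeR (220 unadjusted), DESeq2 (274), limma-voom (613) or any other alternative tried, robust estimation included (219). Unadjusted diet counts ran from 135 (without HFB5) to 587 (without CTL6) when libraries were left out singly, and were 430 without HFB6 and CTL6. Diet log2 fold changes that changed sign were Ier2 (-0.0536) and Nr4a1 (0.0787) in limma-voom and Nr4a1 (0.10) without both glands; leaving out single libraries gave -0.33 to 0.35 for Nr4a1, -0.0291 to 0.45 for Junb and -0.23 to 0.56 for Ier2. Of the Fos fit, adjusted counts were 0 in every setting other than Egr1 as predictor (3206, 4411 unadjusted) and without CTL2 (range 0 to 1786 over single libraries). Its unadjusted count was 269 in limma-voom, 227 without both glands, 980 with robust estimation and 181 to 3912 over single libraries. Fos slopes that changed sign were Dusp1 (-0.0542) in limma-voom, and Junb (0.00234), Nr4a1 (0.16) and Dusp1 (-0.07) without both glands; Dusp1 ran from -0.0757 to 0.28 over single libraries, and without CTL2 Junb was -0.72 and Nr4a1 -1.01. Of the Egr1 fit, counts were 0 adjusted and 2069 unadjusted in limma-voom, 0 and 1637 without both glands, 3184 and 4389 with robust estimation, and over single libraries 0 to 3657 and 1980 to 4712. Its Jun slope was -0.0118 without both glands and 0.33 without HFB5, and Dusp1 ran from -0.0182 to 0.26 over single libraries. Without both glands the members' median SD was 0.46, their median r 0.0710, and r was 0.81 for Jund and Ier2, 0.48 for Junb and Ier2, 0.63 for Junb and Jund, -0.66 for Egr1 and Jund, -0.60 for Egr1 and Ier2, and 0.19 for Ier2 and Nr4a1. Over single libraries r ran from 0.84 to 0.94 for Jund and Ier2, -0.89 to -0.70 for Egr1 and Jund, -0.89 to -0.60 for Egr1 and Ier2, and 0.73 to 0.93 for Fos and Egr1. Over single libraries the median SD ran from 0.54 (without HFB6) to 0.68 (without CTL3), r of Junb and Ier2 from 0.80 (without HFB6) to 0.89 (without HFB1), and r of Ier2 and Nr4a1 from 0.64 (without CTL6) to 0.82 (without CTL2). Without CTL1 and CTL4 the median r was -0.22, r of Junb and Jund 0.86 and r of Fos and Egr1 0.67. The total count difference kept its side of the threshold throughout. Apart from fewer libraries, the cause was not tested.

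No paired analysis was possible because replicate numbers only name the libraries, which come from separate litters. Fos and Fosb had 1 to 39 counts per library, and the smallest difference detectable at this depth was not tested. Sampling time, dissection and RNA quality are not given in the labels. The count of genes following Egr1 rests on HFB6.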
